A study of Mus musculus with 6 samples.

Results

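Complex I, the NADH:ubiquinone oxidoreductase of the mitochondrial respiratory chain, was followed through the transcripts of its 42 subunit genes, out of 54532 genes in each library. The members are 35 nuclear genes (Nduf genes) and the 7 genes of the mitochondrial genome (mt-Nd1 to mt-Nd6 and mt-Nd4l), taken by name as subunits of the enzyme and not by any measured value. Each was found once, and each had a mean of at least 1 RPKM, so all 42 entered the test. Livers came from male C57BL/6J mice at 8 weeks of age, in 2 groups that differed in what the fathers had received: nicotine for 3 offspring (paternal nicotine) and saline for the other 3 (paternal saline). No treatment, transgene or mutation of the offspring themselves is given in the labels. The series concerns liver fibrosis in the offspring of nicotine-treated fathers, and its single comparison asks which liver transcripts differ between the groups. How many fathers or litters were used is not given, and the p-values reflect only how these 6 animals varied.

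Complex I takes electrons from NADH, passes them along a chain of iron-sulfur clusters to ubiquinone, and pumps protons across the inner mitochondrial membrane. Its L shape has a peripheral arm in the matrix, which carries the flavin and the clusters, and a membrane arm, whose pumping core is made from the mitochondrial genome. Around the conserved core sit accessory subunits, all nuclear, which are needed for assembly and stability. In liver the enzyme reoxidises the NADH produced by fatty acid oxidation and the citric acid cycle.

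Values are RPKM, reads scaled to gene length and library size, and the totals behind them ranged from 62072258 to 70089315 reads in paternal nicotine livers and from 61837267 to 66928579 in paternal saline livers. Fold changes are paternal nicotine over paternal saline on log2(RPKM + 1), and a member is called lower or higher where limma's Benjamini-Hochberg adjusted p over 8773 tested genes is under 0.05. The added 1 makes fold changes smaller, most of all in genes of a few RPKM. The deposited scaling divided each gene by the lengths of its annotated transcripts added up, so levels may not compare between genes. The tissue label was checked on 11 hepatocyte markers, which were all detected in every library. Of these 11, 2 fell (Alb for albumin and the urea cycle gene Ass1), 1 rose (the fibrinogen gene Fgb), and 5 had negative fold changes, with a median of 0.047 on the log2 scale. Their summed level was 20055 to 21486 RPKM in paternal nicotine livers and 28244 to 35578 RPKM in paternal saline livers, most of it from Alb, with 11098 to 12486 RPKM in the nicotine group and 19914 to 28635 RPKM in the saline group. Fgb had 3819 to 5412.5 RPKM in the nicotine group and 990.5 to 1747 RPKM in the saline group. In bulk liver, fewer cells of a type and less RNA per cell cannot be told apart, here or in any result that follows.

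Nuclear complex I transcripts were lower in the livers of the paternal nicotine group. Of 35 nuclear members 13 fell, which is 37.1%, and 0 rose. Over all tested genes 5.39% were called lower and 3.89% higher, 9.28% in all. In 28 of the 35, or 80%, every paternal nicotine liver lay below every paternal saline liver, a pattern that 19.2% of all tested genes had. The median log2 fold change was -0.35 for the nuclear members and -0.02 for all tested genes. At an unadjusted p under 0.05 there were 26 of 35 nuclear members, against 26.3% of all tested genes. Limma voom on the reads, a test added after seeing the data, called 11 of the 31 that it could test lower and 0 higher. Among the 8121 genes that it tested, 402 were called lower. The fold change was negative for 34 of 35, against 52.7% of all tested genes, and for 33 of 35 after quantile normalization and after rescaling to the RPKM total outside the mitochondrial genes.

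Summed over the 35 nuclear members, the paternal nicotine livers had 2170, 2094 and 2300.4 RPKM, against 2901, 2836 and 2815 RPKM in the paternal saline livers. The groups did not overlap, and paternal nicotine replicate 2 was the lowest. Set against the saline mean of each gene, the median log2 ratio of the nuclear members was -0.34, -0.39 and -0.29 in the 3 paternal nicotine livers and 0.03, -0.01 and -0.03 in the 3 paternal saline livers. So the shift was of like size in each of the paternal nicotine livers.

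**Figure D1:**
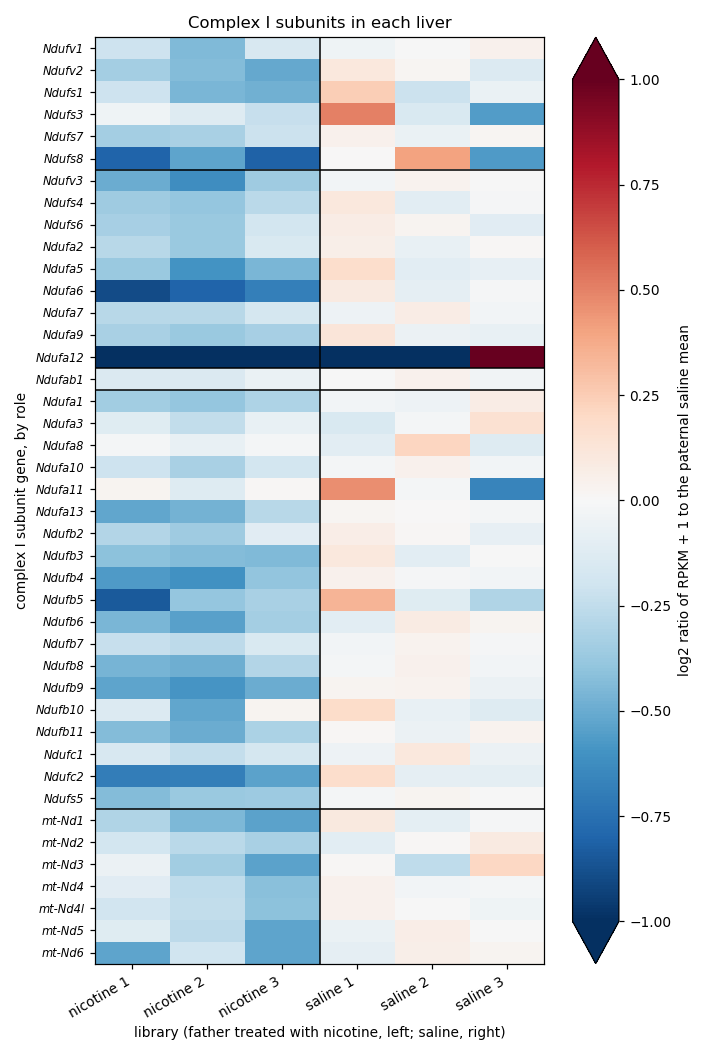
Heat map of the 42 complex I genes (rows, grouped by role) in the 6 libraries (columns, paternal nicotine left of paternal saline); colour is the log2 ratio of RPKM + 1 to the mean of the paternal saline livers. The paternal nicotine columns are mostly blue, with a median over nuclear members of -0.34, -0.39 and -0.29, and Ndufa12 goes past the ends of the colour scale because 1 saline liver is far above the others.

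The number of calls depended on single libraries more than the median did. With 1 liver left out, the nuclear members called lower were 1 without paternal nicotine replicate 1, 1 without replicate 2 and 10 without replicate 3. They were 1 without paternal saline replicate 1, 5 without replicate 2 and 2 without replicate 3. Calls fell over all tested genes as well: 473 called lower became 135, 94 and 402 without paternal nicotine replicates 1, 2 and 3. They became 134, 328 and 197 without paternal saline replicates 1, 2 and 3. Over these 6 omissions Ndufa6 passed in 6, Ndufb9 in 3, Ndufb4 and Ndufc2 in 2, Ndufa1 and Ndufv2 in 0, and the other 7 called members in 1. The median log2 fold change over the same omissions stayed between -0.38 and -0.29. Genes of higher level were also called lower more often: 19.7% of tested genes with a mean of 100 to 1000 RPKM were, against 12.1% of those at 20 to 100 RPKM. Of the 7 nuclear members at 100 to 1000 RPKM 5 fell, and of the 16 at 20 to 100 RPKM 6 fell.

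**Figure D2:**
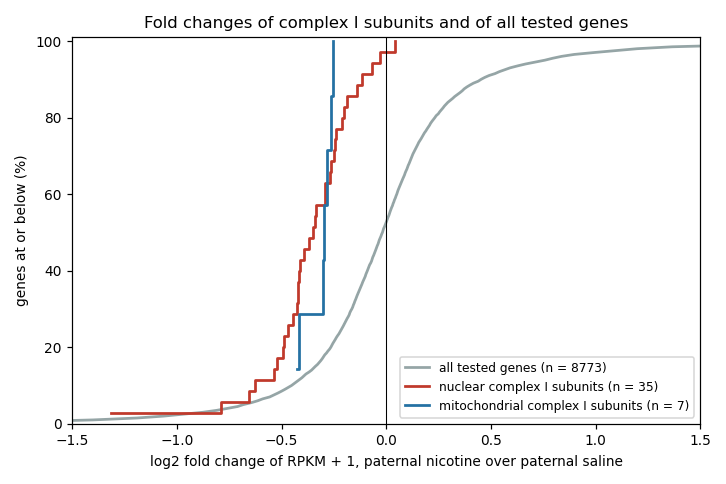
Cumulative distributions of the log2 fold change (paternal nicotine over paternal saline, x axis) for nuclear complex I members, mitochondrial complex I members and all 8773 tested genes; the y axis is the percentage of genes at or below that value. Both complex I curves lie left of the curve of all genes over most of their range, with medians of -0.35 and -0.30 against -0.02.

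Ndufa6 showed the lowest adjusted p of any subunit. It is an accessory subunit of the LYR family in the peripheral arm and holds the mitochondrial acyl carrier protein. Ndufa6 (ENSMUSG00000022450, chr15:82350140-82354322 on GRCm38, minus strand) had 34.1, 36.6 and 39.7 RPKM in the paternal nicotine livers, against 68.5, 60.6 and 64.0 RPKM in the paternal saline livers. The highest paternal nicotine liver lay well under the lowest paternal saline liver. Its log2 fold change was -0.79 (SE 0.09, adjusted p = 0.00814), rank 135 by p among all tested genes. It was the one member that passed in all 17 alternative settings, including each omission of 1 liver, with log2 fold changes of -0.85 to -0.74 over these omissions.

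Ndufb9, the other LYR subunit of the enzyme, sits in the membrane arm, where it holds another acyl carrier protein. Its values (ENSMUSG00000022354, chr15:58933756-58939488, plus strand) were 236, 226 and 241 RPKM in paternal nicotine livers and 346, 348 and 325 RPKM in paternal saline livers. Ndufb9 fell by 0.53 on the log2 scale (SE 0.07, adjusted p = 0.0134) and passed in 13 of 17 alternatives. The acyl carrier itself, Ndufab1, which also serves lipoic acid synthesis, had 5.77, 5.78 and 6.15 RPKM in paternal nicotine livers and 6.45, 6.71 and 6.29 RPKM in paternal saline livers. These groups lay close together without overlap, and the log2 fold change of Ndufab1 was -0.12 (SE 0.08, adjusted p = 0.390). Whether Ndufab1 differed from the LYR subunits was not tested.

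The accessory subunits of the membrane arm held most of the calls: 10 of 19 fell, with a median log2 fold change of -0.39, and 15 of 19 had groups without overlap. Of the 10 genes named Ndufb, 6 fell. Ndufb11 (chrX:20615326-20617619, minus strand), an X-linked subunit, had 276, 265 and 299.8 RPKM in paternal nicotine livers, against 377, 359 and 383 RPKM in paternal saline livers. Ndufb11 fell by 0.41 on the log2 scale (SE 0.08, adjusted p = 0.0334). Ndufa1 (chrX:37187588-37191163, minus strand), the other X-linked subunit and a small one needed for assembly, had 245, 238 and 251 RPKM in the nicotine group, against 306, 302 and 328 RPKM in the saline group. Its fall of 0.35 on the log2 scale (SE 0.07, adjusted p = 0.0417) was the smallest among the 13 called members.

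Ndufc2 (chr7:97400003-97407802, plus strand), a membrane subunit next to the junction of the arms, had 64.9, 65.2 and 72.4 RPKM in paternal nicotine livers, against 119, 98.8 and 98.0 RPKM in paternal saline livers. After Ndufa6 it had the largest fall among called members, 0.63 on the log2 scale (SE 0.11, adjusted p = 0.0216). Ndufb4 (chr16:37647170-37654453, minus strand) had 35.7, 34.6 and 40.3 RPKM in paternal nicotine livers and 54.8, 52.8 and 52.2 RPKM in paternal saline livers (log2 fold change -0.52, SE 0.08, adjusted p = 0.0198). In both genes the gap between the groups was wider than either group's own range. Ndufs5 (chr4:123712710-123718202, minus strand), one of the disulfide-bonded subunits facing the intermembrane space, had the tightest groups of these: 43.6, 45.7 and 46.0 RPKM in the nicotine group, against 58.7, 60.5 and 59.1 RPKM in the saline group. It fell by 0.39 on the log2 scale (SE 0.07, adjusted p = 0.0230).

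Ndufb3 (chr1:58586384-58595964, plus strand), a small single-pass subunit, had 81.0, 79.9 and 79.5 RPKM in paternal nicotine livers, against 117, 100.2 and 108 RPKM in paternal saline livers. Ndufb6 (chr4:40270591-40279421, minus strand) had 100.4, 94.7 and 109 RPKM in the nicotine group, against 128, 146 and 141 RPKM in the saline group. Ndufb8 (chr19:44548572-44555440, minus strand), whose protein is widely used on blots as a sign of assembled complex I, had 15.7, 15.4 and 17.8 RPKM in the nicotine group, against 21.8, 22.8 and 21.6 RPKM in the saline group. None of the 3 genes overlapped between groups. They fell by 0.43, 0.45 and 0.42 on the log2 scale, in that order, with SE of 0.08, 0.09 and 0.08 and adjusted p of 0.0304, 0.0377 and 0.0369. Ndufa13 (chr8:69894180-69902558, minus strand), also known as Grim19 and linked to cell death signalling, had 141, 145 and 167 RPKM in the nicotine group, against 205, 203 and 199 RPKM in the saline group, and fell by 0.42 (SE 0.09, adjusted p = 0.0409).

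The other 9 membrane arm members did not pass. Ndufa8, a disulfide-bonded subunit, had 181, 173 and 180.2 RPKM in paternal nicotine livers and 169.5, 212 and 167 RPKM in paternal saline livers. These groups overlapped fully, and the log2 fold change was -0.03 (SE 0.11, 95% interval -0.30 to 0.24, adjusted p = 0.892). Its sign was positive after quantile normalization (0.021), after rescaling to the total outside the mitochondrial genes (0.0070) and without paternal saline replicate 2 (0.080). Ndufa11, a subunit beside the mitochondrial core proteins, was the one member with a positive fold change, 0.04 (SE 0.28, adjusted p = 0.940). It had 11.8, 10.5 and 11.7 RPKM in paternal nicotine livers, against 16.3, 11.4 and 6.96 RPKM in paternal saline livers, so that the saline livers enclosed all of the nicotine ones. Without paternal saline replicate 3 the log2 fold change of Ndufa11 was -0.25. Among the remaining 7, Ndufa3, Ndufa10, Ndufb2, Ndufb5, Ndufb7, Ndufb10 and Ndufc1, the log2 fold changes ran from -0.49 in Ndufb5 to -0.14 in Ndufa3.

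**Figure D3:**
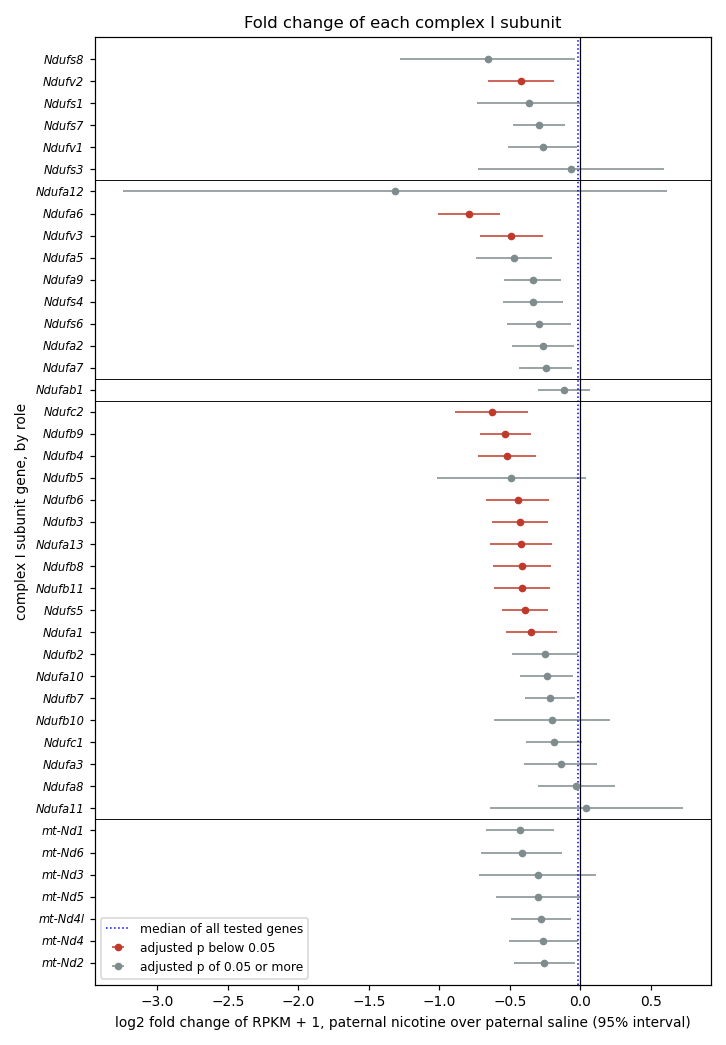
Log2 fold change (paternal nicotine over paternal saline) of each complex I gene with its 95% interval, sorted within role; red marks had an adjusted p under 0.05 and grey ones did not, and the dotted line is the median of all tested genes. The 13 called genes lie between -0.79 for Ndufa6 and -0.35 for Ndufa1, and the interval of Ndufa12 is far wider than the rest.

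In the peripheral arm, all 9 accessory subunits had groups without overlap and 2 of them fell, Ndufa6 and Ndufv3. Ndufv3 (chr17:31520115-31531331, plus strand), a subunit of the NADH-binding module that exists in tissue-dependent isoforms, had 16.0, 14.6 and 17.7 RPKM in paternal nicotine livers, against 22.5, 23.6 and 22.9 RPKM in paternal saline livers. It fell by 0.49 on the log2 scale (SE 0.09, adjusted p = 0.0281). Ndufa5, a subunit of the ubiquinone-reducing module, missed the threshold narrowly: it had 47.7, 40.7 and 44.8 RPKM in the nicotine group, against 70.0, 57.5 and 58.5 RPKM in the saline group, and its log2 fold change was -0.47 (SE 0.11, adjusted p = 0.0532). Ndufa9, which binds NADPH where the arms meet, had 36.5, 35.2 and 36.3 RPKM in paternal nicotine livers and 50.01, 44.1 and 43.6 RPKM in paternal saline livers (log2 fold change -0.34, SE 0.08, adjusted p = 0.0575). Ndufs4, whose loss causes a Leigh-like disease in mice and humans, had 16.0, 15.6 and 17.0 RPKM in the nicotine group, against 22.4, 19.3 and 20.6 RPKM in the saline group (log2 fold change -0.34, SE 0.09, adjusted p = 0.0678). Without passing, Ndufa2, a thioredoxin-fold subunit, the zinc-binding Ndufs6 and Ndufa7 had log2 fold changes of -0.27, -0.29 and -0.25, in that order. The median over the 9 accessory subunits of this arm was -0.34.

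Of the 6 nuclear core subunits, which carry the cofactors, 1 fell and 3 had groups without overlap, with a median of -0.33. Ndufv2 (chr17:66078638-66101559, minus strand), which holds an iron-sulfur cluster beside the flavin, had 26.9, 25.2 and 23.8 RPKM in paternal nicotine livers, against 37.0, 34.9 and 31.0 RPKM in paternal saline livers. The groups were clear of each other, and Ndufv2 fell by 0.42 on the log2 scale (SE 0.10, adjusted p = 0.0485). Ndufv1, the subunit that binds NADH and the flavin, had 12.5, 10.5 and 12.98 RPKM in the nicotine group, against 14.2, 14.6 and 15.1 RPKM in the saline group, a log2 fold change of -0.27 (SE 0.10, adjusted p = 0.155). Ndufs7, which holds the last cluster before ubiquinone, had 33.5, 33.9 and 36.6 RPKM in the nicotine group, against 44.0, 40.8 and 43.2 RPKM in the saline group (log2 fold change -0.29, SE 0.08, adjusted p = 0.0687). Both kept their groups apart without passing the test.

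The other 3 core subunits overlapped between groups. Ndufs8, a cluster-holding subunit, had 18.7, 22.8 and 18.6 RPKM in paternal nicotine livers and 33.4, 44.3 and 22.1 RPKM in paternal saline livers. Its log2 fold change of -0.66 had an SE of 0.25 (adjusted p = 0.171). Ndufs3, which lies near the ubiquinone site, had 11.4, 10.7 and 9.86 RPKM in the nicotine group, against 17.1, 10.5 and 7.64 RPKM in the saline group, and a log2 fold change of -0.07 (SE 0.27, adjusted p = 0.899). Without paternal saline replicate 1 that of Ndufs3 was 0.22. Ndufs1, the largest subunit of the NADH-binding module and the holder of several clusters, had 3.46, 2.75 and 2.68 RPKM in the nicotine group, against 5.08, 3.42 and 3.92 RPKM in the saline group (log2 fold change -0.37, SE 0.15, adjusted p = 0.189).

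Ndufa12, an accessory subunit of the peripheral arm, had the most negative log2 fold change of all members, -1.32, but with an SE of 0.78 and an adjusted p of 0.352. It had 1.16, 1.62 and 1.62 RPKM in paternal nicotine livers, against 2.28, 2.11 and 21.6 RPKM in paternal saline livers. Paternal saline replicate 3 alone stood about an order of magnitude above the rest. The pseudogene Gm15920 (chr5:130188395-130188796) matches Ndufa12 over 402 bases at 99.5% identity, so reads of one may be counted for the other. Gm15920 held 3989, 3591 and 4496 reads in paternal nicotine livers and 5490, 5683 and 2026 reads in paternal saline livers, its lowest value being in the very library where Ndufa12 was high. Ndufa12 took 5.94%, 8.93% and 8.09% of the joint reads in paternal nicotine livers, against 8.21%, 7.97% and 70.5% in paternal saline livers.

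With the reads of both loci summed, Ndufa12 and Gm15920 came to 68.3, 63.5 and 69.8 RPM (reads scaled to library size alone) in paternal nicotine livers and 96.7, 92.3 and 107 RPM in paternal saline livers. The sums were tight in both groups and did not overlap. In a test on such sums, chosen after seeing the data, Ndufa12 with its copy fell by 0.53 on the log2 scale (SE 0.09, adjusted p = 0.0206). It joined the same 13 nuclear members to give 14 calls.

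**Figure D4:**
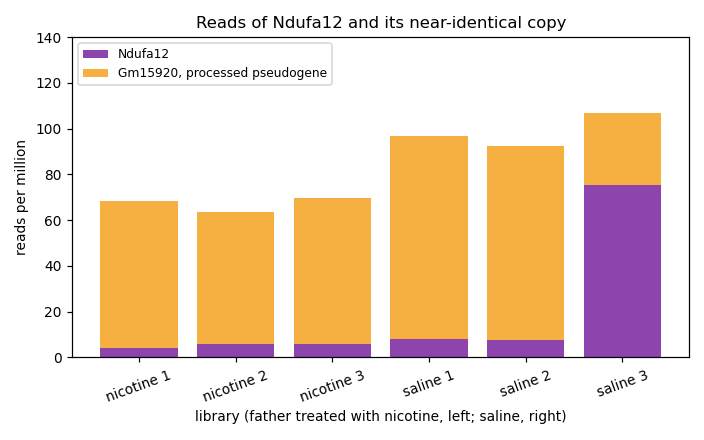
Reads scaled to library size (RPM) assigned to Ndufa12 and to its near-identical copy Gm15920, stacked, in each of the 6 livers (paternal nicotine left). The division between the loci is turned round in paternal saline replicate 3, where Ndufa12 holds 70.5% of the reads, while the sums separate the groups.

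Copies of this kind, with an alignment of 200 bases or longer at 95% identity or above, exist for 9 nuclear members, among them the called genes Ndufb3, Ndufb4, Ndufb11 and Ndufs5. For Ndufb4 the copy Ndufb4c held 10.2% to 12.4% of the summed level over the 6 livers, and the sum fell by 0.51 on the log2 scale (SE 0.08, adjusted p = 0.0179). Adding the copies left the calls of all 13 members in place. For Ndufs3 with Gm12251 the groups still overlapped (log2 fold change -0.11, SE 0.23, adjusted p = 0.798). A further limit is that 13 members share at least 50 exonic bases with another annotated gene, 5 of them called (Ndufa13, Ndufb6, Ndufb8, Ndufb9 and Ndufb11), and the labels do not say if strand was kept. The genes that overlap these 5 had means between 0 and 3.61 RPKM.

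The mitochondrial members had negative fold changes without passing the test. Of the 7, 0 were called in either direction by limma, and 0 by limma voom on the reads. At an unadjusted p under 0.05 there were 5 of 7, against 26.3% of all tested genes. In 6 of 7, or 85.7%, all paternal nicotine livers lay below all paternal saline livers, against 19.2% of all tested genes. The median log2 fold change was -0.30. The 55 tested genes with a mean of 1000 RPKM or more, these 7 among them, had a median of -0.26, and 14.5% of them were called lower. The summed level of the 7 mitochondrial members was 18625, 17371 and 15780 RPKM in paternal nicotine livers. In paternal saline livers it was 21675, 21084 and 21926 RPKM.

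These genes encode the proton-pumping core of the membrane arm. The gene next to the ubiquinone site, mt-Nd1, had 4964, 4481 and 4223 RPKM in paternal nicotine livers and 6570.3, 5725 and 6077 RPKM in paternal saline livers. All of the nicotine livers lay below the saline ones, and the log2 fold change was -0.43 (SE 0.10, adjusted p = 0.0519). With a minimum mean of 5 RPKM in place of 1, mt-Nd1 passed at an adjusted p of 0.0344, and with pseudocounts of 0.1 and 0.01 at 0.0494 and 0.0493. The range of its adjusted p over all alternatives was 0.0344 to 0.162. The one gene read from the other strand of the circle, mt-Nd6, had 927, 1165 and 930.1 RPKM in the nicotine group, against 1256, 1396 and 1366 RPKM in the saline group (log2 fold change -0.42, SE 0.12, adjusted p = 0.0836).

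The antiporter-like pump subunits gave similar figures. The first, mt-Nd2, had 4219, 3987 and 3834 RPKM in paternal nicotine livers, against 4452, 4826 and 5107 RPKM in paternal saline livers (log2 fold change -0.26, SE 0.09, adjusted p = 0.135). Another, mt-Nd4, had 3359, 3051 and 2722 RPKM in the nicotine group, against 3754, 3568 and 3595 RPKM in the saline group (log2 fold change -0.26, SE 0.10, adjusted p = 0.166). It passed under quantile normalization at an adjusted p of 0.0278, within a range of 0.0278 to 0.332 over all alternatives. The distal pump, mt-Nd5, had 1915, 1738 and 1446 RPKM in the nicotine group, against 1980.1, 2183 and 2074 RPKM in the saline group (log2 fold change -0.30, SE 0.12, adjusted p = 0.191). In these 3 the groups did not overlap, and paternal nicotine replicate 3 was the lowest liver each time.

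The small subunit mt-Nd4l had 2078, 1999 and 1790.5 RPKM in paternal nicotine livers, against 2442, 2371 and 2309.6 RPKM in paternal saline livers (log2 fold change -0.28, SE 0.09, adjusted p = 0.106). In mt-Nd3, whose loop takes part in the switch between active and resting enzyme, the values were 1161, 952 and 834 RPKM in the nicotine group, against 1222, 1016 and 1397 RPKM in the saline group. It was the one mitochondrial member with overlapping groups (log2 fold change -0.30, SE 0.17, adjusted p = 0.325). Near-identical copies on chromosome 1 took 49.9% to 51.2% of the summed level of mt-Nd3 44.1% to 44.9% of that of mt-Nd4l and 23.9% to 24.6% of that of mt-Nd4 over the 6 livers. With copies added, mt-Nd3 had a log2 fold change of -0.31, mt-Nd4l of -0.27 and mt-Nd4 of -0.26, and none of these 3 passed.

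mt-Nd4l and mt-Nd4 are made as a single messenger with overlapping reading frames. The end of mt-Nd4l (mitochondrial genome, positions 10134-10173, plus strand) and the start of mt-Nd4 (10167-10206) are printed to show the 7 bases, in capitals, that both genes contain, from the GENCODE M21 transcripts on GRCm38.
mt-Nd4l: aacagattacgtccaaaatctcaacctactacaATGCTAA
mt-Nd4: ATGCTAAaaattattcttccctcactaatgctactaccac
Without their copies, the ratio of the mt-Nd4l level to the mt-Nd4 level was 0.619, 0.655 and 0.658 in paternal nicotine livers and 0.650, 0.664 and 0.642 in paternal saline livers. The ratio overlapped between the groups.

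**Figure D5:**
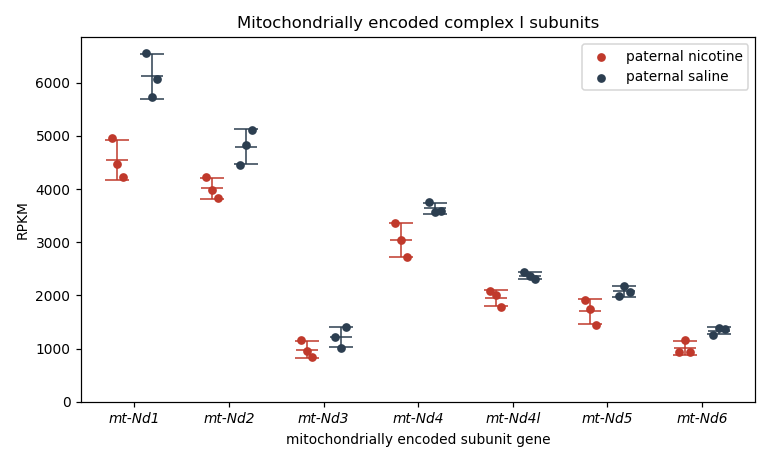
RPKM of the 7 mitochondrial complex I genes in each liver (points; y axis in RPKM) with the mean and SD of each group as horizontal marks and error bars, paternal nicotine left of paternal saline. Groups are apart for 6 genes and overlap for mt-Nd3, and none passed an adjusted p of 0.05.

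Nuclear and mitochondrial members were set against each other within a liver. The summed mitochondrial level was 8.58, 8.30 and 6.86 times the summed nuclear level in paternal nicotine livers, and 7.47, 7.43 and 7.79 times in paternal saline livers. The nicotine livers lay on both sides of the saline ones, replicate 3 being the lowest and replicate 1 the highest of all 6. The 7 mt-Nd genes made up 32.7%, 33.6% and 31.7% of the RPKM of all mitochondrial protein-coding genes in paternal nicotine livers, against 31.7%, 31.8% and 32.0% in paternal saline livers. All mitochondrial genes together held 15.7% ± 1.25 of the RPKM total in paternal nicotine livers and 18.8% ± 0.319 in paternal saline livers (SD, n = 3 each; exact two-sided permutation test, p = 0.1, the smallest that 3 against 3 can give). With each library rescaled to the total outside these genes, 5 nuclear members were called lower in place of 13, namely Ndufa6, Ndufb4, Ndufb9, Ndufc2 and Ndufs5, and the nuclear median was -0.31.

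Promoters were searched because so many nuclear members lay lower together. RefSeq promoters (GRCm38.p6, 250 bases before to 50 after the start, 300 in all) were matched for 32 of the 35 nuclear members. Exact matches on either strand were sought to GCGCA, any base (N) and GCGC in a row for nuclear respiratory factor NRF1, AAGATGGC for YY1, CCGGAAG for ETS factors such as GABPA, and TCAAGGTCA for the estrogen-related receptors. No matches overlapped each other. The NRF1 letters were in 7 of 32 members (21.9%), against 12.03% of tested genes with a promoter and 4.60% of all 32851 promoters. They were in 3 of the 12 called members with a promoter (Ndufa6, Ndufb4 and Ndufs5) and in 4 of the 20 that did not pass (Ndufa5, Ndufa8, Ndufa11 and Ndufs6).

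The 250 bases before the start are printed for Ndufb4 (chr16:37654369-37654618, minus strand), which has 3 matches, for Ndufs5 (chr4:123718187-123718436, minus strand), which has 1, and for Ndufa8 (chr2:36049339-36049588, minus strand), the member with the fold change nearest to 0. For Ndufa6 the match lies after the start, and 24 bases around it are given (chr15:82354252-82354275, minus strand). Each runs 5′ to 3′ along the gene, with the NRF1 letters, on either strand, in capitals.
Ndufb4: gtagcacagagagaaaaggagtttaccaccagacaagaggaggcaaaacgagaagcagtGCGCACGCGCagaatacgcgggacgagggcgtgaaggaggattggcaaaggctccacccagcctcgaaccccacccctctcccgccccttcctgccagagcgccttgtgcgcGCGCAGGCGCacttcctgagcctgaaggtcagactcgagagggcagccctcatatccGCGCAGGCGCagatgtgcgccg
Ndufs5: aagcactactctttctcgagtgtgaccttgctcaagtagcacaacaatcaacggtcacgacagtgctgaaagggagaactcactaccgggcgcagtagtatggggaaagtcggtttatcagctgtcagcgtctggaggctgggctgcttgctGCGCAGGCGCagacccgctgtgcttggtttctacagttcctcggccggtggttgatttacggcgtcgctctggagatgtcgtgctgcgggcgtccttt
Ndufa8: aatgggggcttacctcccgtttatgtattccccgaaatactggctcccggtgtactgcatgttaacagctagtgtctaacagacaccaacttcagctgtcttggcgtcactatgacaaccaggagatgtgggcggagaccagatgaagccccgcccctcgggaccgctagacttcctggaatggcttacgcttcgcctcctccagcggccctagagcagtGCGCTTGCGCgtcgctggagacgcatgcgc
Ndufa6: tggcaccGCGCGTGCGCacgctga
The letters thus stood before the start of Ndufb4, which fell, and of Ndufa8, which had overlapping groups. A match is a stretch of letters and shows no binding.

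The YY1 letters were in 7 of 32 members (21.9%), against 5.76% of tested genes and 2.75% of all promoters, in 1 of the 12 called and in 6 of the 20 not passed. All 7 matches read along the gene and began 23 to 39 bases after the start. These windows are printed because the letters recur at a like place in subunits of both arms, with the match in capitals. They come from Ndufb8 (chr19:44555393-44555412, minus), Ndufs4 (chr13:114388045-114388067, minus), Ndufs6 (chr13:73328434-73328457, minus), Ndufs7 (chr10:80249465-80249488, plus), Ndufa3 (chr7:3617387-3617410, plus), Ndufa9 (chr6:126849100-126849123, minus) and Ndufc1 (chr3:51408918-51408941, minus).
Ndufb8: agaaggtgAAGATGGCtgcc
Ndufs4: cctacaggAAGATGGCggcggtc
Ndufs6: tcaccggcAAGATGGCggcggtgc
Ndufs7: ccgaggccAAGATGGCggcgctgg
Ndufa3: ccaagaacAAGATGGCcgggagta
Ndufa9: tgtgggagAAGATGGCggccgccg
Ndufc1: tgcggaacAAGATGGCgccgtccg
Of these 7 genes Ndufb8 fell and the rest did not pass. The ETS letters were in 4 of 32 (12.5%), against 21.006% of tested genes and 8.86% of all promoters. The estrogen-related receptor letters were in 0 of 32, against 0.309% of tested genes and 0.423% of all promoters.

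The regulators known for these motifs were measured as well. Of 6 tested regulators of mitochondrial biogenesis 1 fell (16.7%, against 5.39% of all tested genes) and 0 rose. Limma voom could test 5 of them, without Esrra, and called 0. Esrra, the estrogen-related receptor of oxidative tissues, had 8.21, 10.4 and 12.99 RPKM in paternal nicotine livers, against 18.9, 18.4 and 19.5 RPKM in paternal saline livers. Its groups were far apart, and it fell by 0.81 on the log2 scale (SE 0.16, adjusted p = 0.0331). With 1 liver left out, limma's adjusted p of Esrra ran from 0.0251 to 0.108 and passed in 1 of 6 omissions, without paternal nicotine replicate 3. Sp1, a general activator of housekeeping promoters, had 2.61, 2.54 and 2.284 RPKM in the nicotine group, against 1.96, 1.94 and 2.277 RPKM in the saline group, above it by a narrow margin (log2 fold change 0.19, SE 0.09, adjusted p = 0.251). Nfe2l2, a factor of the oxidative stress response, overlapped between the groups (log2 fold change -0.24, SE 0.18, adjusted p = 0.436). So did Yy1, with 15.7, 15.0 and 13.7 RPKM in the nicotine group, against 14.3, 16.6 and 17.7 RPKM in the saline group (log2 fold change -0.12, SE 0.11, adjusted p = 0.539), and Gabpa (log2 fold change 0.18, SE 0.35, adjusted p = 0.777). Nrf1 was below the level for testing, at 0.0950 to 0.159 RPKM in the nicotine group and 0.152 to 0.245 RPKM in the saline group. Ppargc1a, the coactivator of this programme, was also below it, at 0.154 to 0.184 RPKM in paternal nicotine livers and 0.351 to 0.376 RPKM in paternal saline livers. Myc, below it too, lay the other way, at 0.297 to 0.511 RPKM in the nicotine group and 0.124 to 0.199 RPKM in the saline group. Nrf1, Gabpb1, Perm1, Ppargc1b and Pprc1, the rest below that level, overlapped between groups. Whether Esrra bore on the complex I genes was not tested.

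Proteins that build complex I without staying in it did not pass: of 21 tested assembly factors, 0 were called. At an unadjusted p under 0.05 there were 3 of 21, against 26.3% of all tested genes, and limma voom also called 0. The median log2 fold change of the assembly factors was -0.15, and 17 of 21 were negative. Many of them had only a few RPKM, where the 1 added before taking logs makes fold changes smaller. This median may therefore not compare with that of the subunits. Nubpl, which delivers iron-sulfur clusters to the peripheral arm, had 1.56, 1.44 and 1.41 RPKM in paternal nicotine livers, against 2.03, 1.91 and 1.88 RPKM in paternal saline livers (log2 fold change -0.25, SE 0.07, adjusted p = 0.1001). Ecsit, an assembly factor of the membrane arm, had 7.30, 7.19 and 7.56 RPKM in the nicotine group, against 8.62, 9.33 and 8.81 RPKM in the saline group (log2 fold change -0.25, SE 0.08, adjusted p = 0.103). Both had groups without overlap, as 5 of the 21 did with the nicotine group below (23.8%, against 19.2% of all tested genes).

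Among 19 genes of mitochondrial iron-sulfur cluster assembly, whose product the peripheral arm needs, 4 fell and 0 rose, with a median of -0.18. The share that fell was 21.1%, against 5.39% of all tested genes. Fdx1, a ferredoxin that supplies electrons, had 15.2, 17.3 and 18.5 RPKM in paternal nicotine livers, against 32.4, 27.9 and 29.3 RPKM in paternal saline livers (log2 fold change -0.78, SE 0.10, adjusted p = 0.0126). Lyrm4, the LYR protein that couples the cysteine desulfurase to the acyl carrier Ndufab1, had 3.93, 4.39 and 3.67 RPKM in the nicotine group, against 7.40, 6.50 and 5.73 RPKM in the saline group (log2 fold change -0.59, SE 0.11, adjusted p = 0.0320). Bola3 and Glrx5, which act in handing clusters on, fell by 0.61 and 0.55 on the log2 scale, with adjusted p of 0.0242 and 0.0281. In all 4 the groups were apart. Of 9 ubiquinone genes 1 fell (11.1%), Coq10a, a ubiquinone-binding protein (log2 fold change -0.51, SE 0.10, adjusted p = 0.0346), with a median of -0.24 for the list.

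Of 6 mitochondrially encoded subunits of other complexes 1 fell (16.7%), the cytochrome oxidase gene mt-Co1 (log2 fold change -0.50, SE 0.07, adjusted p = 0.0144), and the median was -0.31. The 2 mitochondrial rRNAs, mt-Rnr1 and mt-Rnr2, overlapped between groups, with a median of 0.18. In the machinery that expresses the mitochondrial genome, 1 of 22 fell (4.55%, below the 5.39% of all tested genes). This was Hsd17b10, a subunit of the mitochondrial RNase P and a fatty acid and isoleucine catabolic enzyme, with 31.5, 31.3 and 34.1 RPKM in paternal nicotine livers, against 62.2, 57.4 and 52.9 RPKM in paternal saline livers (log2 fold change -0.81, SE 0.09, adjusted p = 0.00743). Twnk, the helicase of mitochondrial DNA, went the other way without passing, with 11.3, 9.496 and 10.99 RPKM in the nicotine group, against 7.33, 7.53 and 8.67 RPKM in the saline group (log2 fold change 0.39, SE 0.11, adjusted p = 0.0758). The DNA-packaging factor Tfam had 6.01, 5.71 and 5.20 RPKM in the nicotine group, against 6.71, 6.57 and 7.09 RPKM in the saline group, apart but not past the threshold (log2 fold change -0.23, SE 0.09, adjusted p = 0.154). The median of this machinery was -0.06.

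General markers of mitochondrial mass also included falls: 3 of 13 (23.1%, against 5.39% of all tested genes), with a median of -0.24. They were the outer membrane channel Vdac1 (log2 fold change -0.54, SE 0.09, adjusted p = 0.0189), the import motor subunit Timm44 (-0.41, SE 0.08, adjusted p = 0.0281) and the crista junction protein Chchd3 (-0.54, SE 0.12, adjusted p = 0.0445). Of 9 mitochondrial proteases and quality control factors 0 were called, with a median of -0.13. Of 10 housekeeping genes 0 were called, with a median of -0.20. Limma voom also called 0 in both lists. An unadjusted p under 0.05 was found for 2 of 9 and 3 of 10 genes, against 26.3% of all tested genes. Over all these lists, housekeeping genes included, 11 of 117 tested genes were called, and all 11 were lower (9.40%, against 5.39% of all tested genes). There were 3, 1 and 8 without paternal nicotine replicates 1, 2 and 3, and 1, 6 and 3 without paternal saline replicates 1, 2 and 3. Over these 6 omissions Hsd17b10 passed in 6, Fdx1 in 4, mt-Co1 in 3, Vdac1 in 2, Timm44 and Chchd3 in 0, and the other 5 genes in 1.

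Markers of other cell types moved with the groups in part. For 12 neutrophil markers the sum came to 26.8 to 86.8 RPKM in paternal nicotine livers and 6.02 to 7.19 RPKM in paternal saline livers. Of these 12, 3 had the level for testing and 1 rose, S100a8. Retnlg, Cxcr2, Elane, Ly6g and Mmp8 lay higher in the nicotine group without overlap. S100a9, Camp, Csf3r, Ltf, Mpo and Ngp overlapped between groups. Sums of 6 cholangiocyte markers were 20.1 to 21.003 RPKM in the nicotine group and 8.68 to 11.4 RPKM in the saline group. The cholangiocyte sum was mostly Sox9 and Spp1, which rose, while Krt19, Epcam, Krt7 and Cftr overlapped between groups. The sums of 12 Kupffer cell markers overlapped, at 435 to 1376 RPKM in the nicotine group and 438 to 861 RPKM in the saline group. Among them Marco and Cd68 lay higher in the nicotine group without overlap, the rest overlapped, and 0 were called. Sums of 10 T and NK cell markers were 1.74 to 14.5 RPKM in the nicotine group, against 2.69 to 3.70 RPKM in the saline group. The sums for endothelial, stellate, erythroid and B cells also overlapped. Of their markers, Lyve1, Ecm1 and Hgf lay higher in the nicotine group without overlap, Alas2 lay lower, and the rest overlapped. Sums of 12 pancreatic acinar markers were 4062 RPKM in paternal nicotine replicate 2 and 3.04 to 5.33 RPKM in the other 5 livers, with Prss1 at 0 throughout. Their part in the lower complex I levels was not tested. Without paternal nicotine replicate 2 the nuclear median was -0.33, against -0.35 with it. Nuclear members called lower were then 1 in place of 13, and over all tested genes 94 in place of 473. The nuclear count was also 1 without paternal nicotine replicate 1 and without paternal saline replicate 1.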

How the data were processed

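Liver RNA was extracted with Trizol and a TruSeq kit for DNA is named for the libraries, per the labels' protocols. CASAVA, TopHat and the build mm8 are named in the submitters' processing notes, without versions or roles. The sources used here name no counting tool or annotation, and do not say if strand was kept or how reads matching several places were handled.

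The authors deposited RPKM values for 54532 Ensembl genes per library. The deposited gene lengths, another unit (bases), were not used. Symbols and coordinates come from GENCODE M21 (GRCm38), to which 99.93% of identifiers matched. Genes without a read hold a tiny placeholder, set to 0 here, which also gave the reads behind each library. Of 42 members 38 came out as whole reads within 0.01, as did 24331 of 25531 genes with a read (95.3%).

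Values were tested as log2(RPKM + 1) with limma 3.58.1 (R 4.3.3, eBayes with trend and robust) on 8773 genes (mean over the 6 libraries 1 RPKM or more), with Benjamini-Hochberg adjustment over all of them and a threshold of 0.05. The shares of RPKM used an exact permutation test (scipy 1.17.1). The fit was tested on simulated data. Of the units the design allowed for, counts or normalized values, the files hold normalized values.

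The members, lists and tests were chosen with earlier results of these data known. Values per library are given for every called member, for all 7 mitochondrial members, and for the nuclear members that did not pass with the 2 most positive and 2 most negative fold changes. In pathway lists, genes are named from the 4 of lowest p, not always all 4. Ndufa5, Ndufa9, Ndufs1, Ndufs3, Ndufs4, Ndufs7, Ndufv1, Ndufab1, Ppargc1a, Nrf1, Gabpa and the cell type markers lie outside this rule and were named for their role or after their values were seen. So do Myc, Gabpb1, Perm1, Ppargc1b and Pprc1, named to complete the regulators below the level for testing.

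Alternatives were median-ratio, quantile and non-mitochondrial rescaling, no or a stricter filter, other pseudocounts, no trend and robust, a replicate block and leaving out each library. Limma voom on the reads, and reads of near-identical copies added (blastn 2.17.0), were added after seeing the data. Shared exonic bases were found with bedtools 2.31.1. Figures were drawn with matplotlib 3.10.9.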

Additional observations from a re-analysis of the deposited data

How the results depend on the processing

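The 13 falls among nuclear members became 5 after rescaling to the total outside the mitochondrial genes and 2 with no filter on low values, where 25531 genes were tested. They ranged from 1 to 10 with 1 liver left out, and from 9 to 17 under the other settings without a replicate block. No setting called a nuclear member higher. Every call under these settings was among the 13, except 4 further members with a minimum mean of 5 RPKM and Ndufa12 with copies added. The nuclear median of -0.35 was -0.29 under quantile normalization and ranged from -0.38 to -0.29 with 1 liver left out. Of the mitochondrial members 1 was called lower in place of 0 under quantile normalization, a minimum mean of 5 RPKM and pseudocounts of 0.1 and 0.01. The mitochondrial share of the RPKM total kept its direction in all settings.

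Over all genes, 814 calls (473 lower, 341 higher) became 367 (183 lower, 184 higher) with no filter. With 1 liver left out they ranged from 185 to 658, the lower ones from 94 to 402 and the higher ones from 91 to 301. The pathway and housekeeping lists had 3 calls in place of 11 with no filter, and from 1 to 8 with 1 liver left out. Signs reversed for Ndufa8 with quantile normalization (0.021) and after rescaling to the total outside the mitochondrial genes (0.0070). With 1 liver left out, signs were mixed for Ndufa8 (-0.090 to 0.080), Ndufs3 (-0.31 to 0.22) and Ndufa11 (-0.25 to 0.31). The cause of these changes was not tested.

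The labels do not say whether animals with the same replicate number were paired. Deviations from the group means of same-numbered livers correlated at 0.0071, 0.0565 and 0.0494, and so few livers cannot settle whether they were paired. With the number as a replicate block, 1 nuclear member was called lower (Ndufa6), 1 gene in the pathway lists, and 383 genes in all (198 lower, 185 higher). Paternal nicotine replicates 2 and 3 correlated best with their own number and replicate 1 with paternal saline replicate 2.

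Of the members counted in whole reads the lowest, Ndufa12, still had 252 reads in its poorest library.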
